A study of Mus musculus with 12 samples.

Results

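Lypd8 had the highest expression value of all genes in the rectal RNA of each of 12 mice, and it is described here with 6 further genes of the Ly6/uPAR family: Ly6c1, Ly6c2, Ly6d, Ly6e, Ly6g and Lypd3. The group was set by that rank of Lypd8 and by family membership, and it makes up 7 of the 17734 genes in the deposited table. The rank of Lypd8 was therefore what chose it and is given as a description with no test.

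Male C57BL/6 mice, 8 to 10 weeks old, were compared in 4 groups of 3. Normal mice drank water. Normal mice receiving BBR were given berberine (BBR), a plant alkaloid, daily by gavage (100 mg/kg). Colitis mice drank 2.5% dextran sulfate sodium (DSS), a polymer that injures the lining of the large bowel, for 7 days, and colitis mice receiving BBR had both. BBR ran for 6 days by the labels and from day 1 to day 7 by the study's methods. The labels number the mice: 1, 3 and 4 with or without BBR when no DSS was given, 1, 2 and 4 for colitis without BBR, and 2, 3 and 4 for colitis with BBR. Every mouse is a separate sample of whole rectal tissue, called colon or colorectum in the labels. In such tissue fewer cells of a type and less RNA per cell cannot be told apart.

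Proteins of the Ly6/uPAR family are small, share a fold held by disulfide bonds and are mostly tethered to the outer cell membrane by a lipid (GPI) anchor, while some are secreted. Lypd8 is made by the epithelium of the large bowel, is shed into the lumen and binds the flagella of motile bacteria, keeping them off the mucosal surface. Ly6C, made from Ly6c1 and Ly6c2, is a surface marker of monocytes and is also found on endothelium, T cell subsets and plasma cells. Ly6G is the standard surface marker of mouse neutrophils. Ly6e is an interferon-induced gene that influences the entry of viruses, and Ly6d and Lypd3 are best known from stratified squamous epithelium.

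Ly6c1 and Ly6c2 are near-copies, and their sequences are shown because Ly6c1 was higher in every mouse given DSS than in any mouse without it, while Ly6c2 was lower in most of them. In the RefSeq annotation of GRCm38.p6, Ly6c1 lies at chr15:75044018-75048920 and Ly6c2 at chr15:75108161-75112066. Their coding sequences of 393 bases differ at 9 positions, an identity of 97.7%. The first 120 coding bases, 5′ to 3′, are given for both and for Ly6a and Ly6g from the same cluster, read from GENCODE transcripts on GRCm38. Capitals mark bases that differ from Ly6c1.
Ly6c1: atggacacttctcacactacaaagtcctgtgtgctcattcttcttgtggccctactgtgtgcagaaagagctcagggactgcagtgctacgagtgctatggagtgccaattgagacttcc
Ly6c2: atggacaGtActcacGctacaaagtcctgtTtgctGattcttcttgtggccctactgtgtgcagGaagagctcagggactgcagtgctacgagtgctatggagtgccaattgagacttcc
Ly6a: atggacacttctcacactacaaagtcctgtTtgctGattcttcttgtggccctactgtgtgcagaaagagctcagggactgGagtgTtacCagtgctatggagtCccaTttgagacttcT
Ly6g: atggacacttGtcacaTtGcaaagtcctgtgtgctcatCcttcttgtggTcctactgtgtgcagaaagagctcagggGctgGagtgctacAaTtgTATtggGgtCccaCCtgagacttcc
Of the 9 differences between Ly6c1 and Ly6c2, 6 fall in the stretch shown, and the run from base 66 to base 253 is identical in both. Ly6a differs from Ly6c1 at 8 and Ly6g at 16 of these 120 bases. The reads were 50 bases long by the study's methods. Of all 50-base windows of the annotated transcripts, 32.8% of those of Ly6c1 and 31.2% of those of Ly6c2 also occur in another gene. For Ly6g the share is 0.4%, and for Lypd8, Ly6d, Ly6e and Lypd3 it is 0.0%. Of the 578 shared windows of Ly6c1, 379 occur in Ly6c2, and Ly6a, which was far more abundant, shares 195 of its own windows with Ly6c1. Reads from shared windows were divided between such genes by the authors' RSEM step, so the levels of Ly6c1 and Ly6c2 and also their sum are uncertain to that extent.

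The deposited values were read as FPKM, a unit corrected for the length of each transcript and for depth. The unit is not named in the sources used here, and levels of different genes are set side by side on the reading that the values are per length. The mice numbered 4 stand apart in all 4 groups, with column totals of 482194 to 504337 and 872 to 1086 genes at 0. The other 8 mice have totals of 696286 to 765876 and 1332 to 1926 genes at 0. Values within the mice numbered 1 to 3 and within those numbered 4, the latter 1 mouse against 1 with no replicate, are therefore given beside the main results. The level of smooth muscle markers varied both with the mice numbered 4 and with DSS. The summed FPKM of 7 smooth muscle markers such as Acta2 and Tagln was 1658.7 to 3120.1 in normal mice, 2331.5 to 4942.2 after BBR alone, 73.2 to 669 in colitis mice and 482 to 3501.4 with both, with the mouse numbered 4 highest in each group. All 7 were lower in colitis than in normal mice at an unadjusted P of at most 0.05 (15.9% of all genes in that direction) and 0 passed the adjusted limit in limma (1.08%), with a median log2 difference of −2.99 against −0.32 over all genes. No marker of the list was at 0 throughout a group, and its part in the values of the members was not tested.

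Lypd8 lies at chr11:58379032-58390541, away from the cluster on chromosome 15. Its level was 25919.68, 27740.97 and 16100.89 FPKM in the 3 normal mice and 26654.48, 26339.69 and 20150.27 FPKM in normal mice receiving BBR. The colitis mice had 49116.28, 46776.23 and 19590.13 FPKM, and with BBR they had 60727.24, 48062.82 and 19685.98 FPKM. The last value of each group belongs to the mouse numbered 4 and is the lowest of that group in all 4 cases. All 4 mice with both DSS and a number from 1 to 3 lay above every mouse without DSS, while the DSS mice numbered 4 lay among the mice without it. This single transcript made up 3.34% to 4.12% of the column total in mice without DSS and 3.88% to 8.06% in mice with it. By this share the mouse numbered 4 was the lowest of its group except after BBR alone, where it was the highest (4.12%). The gene in second place was Zg16, a goblet cell lectin, in 10 mice, Saa1 in 1 colitis mouse and Sprr2a3 in another, and Lypd8 exceeded the second gene by 1.09 to 6.11 times.

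From low to high, the mean of Lypd8 was 23253.8 ± 6261.2 FPKM (SD, n = 3) in normal mice, 24381.5 ± 3667.7 in normal mice receiving BBR, 38494.2 ± 16413.2 with colitis and 42825.3 ± 21015.9 with colitis and BBR. No neighbours in this order differed beyond their spread, and all groups overlapped. The limma difference of log2(FPKM + 0.1) between colitis and normal mice was 0.65 (SE 1.31, adjusted p = 0.776), and it was 0.84 within mice 1 to 3 and 0.28 within mice 4. The SE is large because the fit ties the spread to the mean level, and no other gene lies as high. Without that tie the SE was 0.46 and the adjusted p 0.408. BBR-treated against untreated mice gave a log2 difference of 0.12 with colitis and 0.10 without it (adjusted p = 1.0 for both), each smaller than its SE of 1.31.

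The levels of other epithelial genes are set beside Lypd8 here. The summed FPKM of 10 surface colonocyte markers ran from 8643.0 to 17101.6 in normal mice, from 11412.4 to 16764.7 after BBR alone, from 6246.1 to 22133.7 in colitis mice and from 9752.7 to 30435.8 with both. In all 4 groups the lowest of these sums belonged to the mouse numbered 4, whose column total was also the lowest of its group. The sum of 7 goblet cell markers was also lowest there, at 15458.7, 16681.2, 11252.6 and 18259.1 FPKM. No marker of either list was at 0 in every mouse of a group. The sum of 8 general epithelial markers such as Krt8, Krt19 and Epcam stayed between 9665.4 and 16540.3 FPKM in all 12 mice. The part of epithelial content in the Lypd8 levels was not tested.

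**Figure D1:**
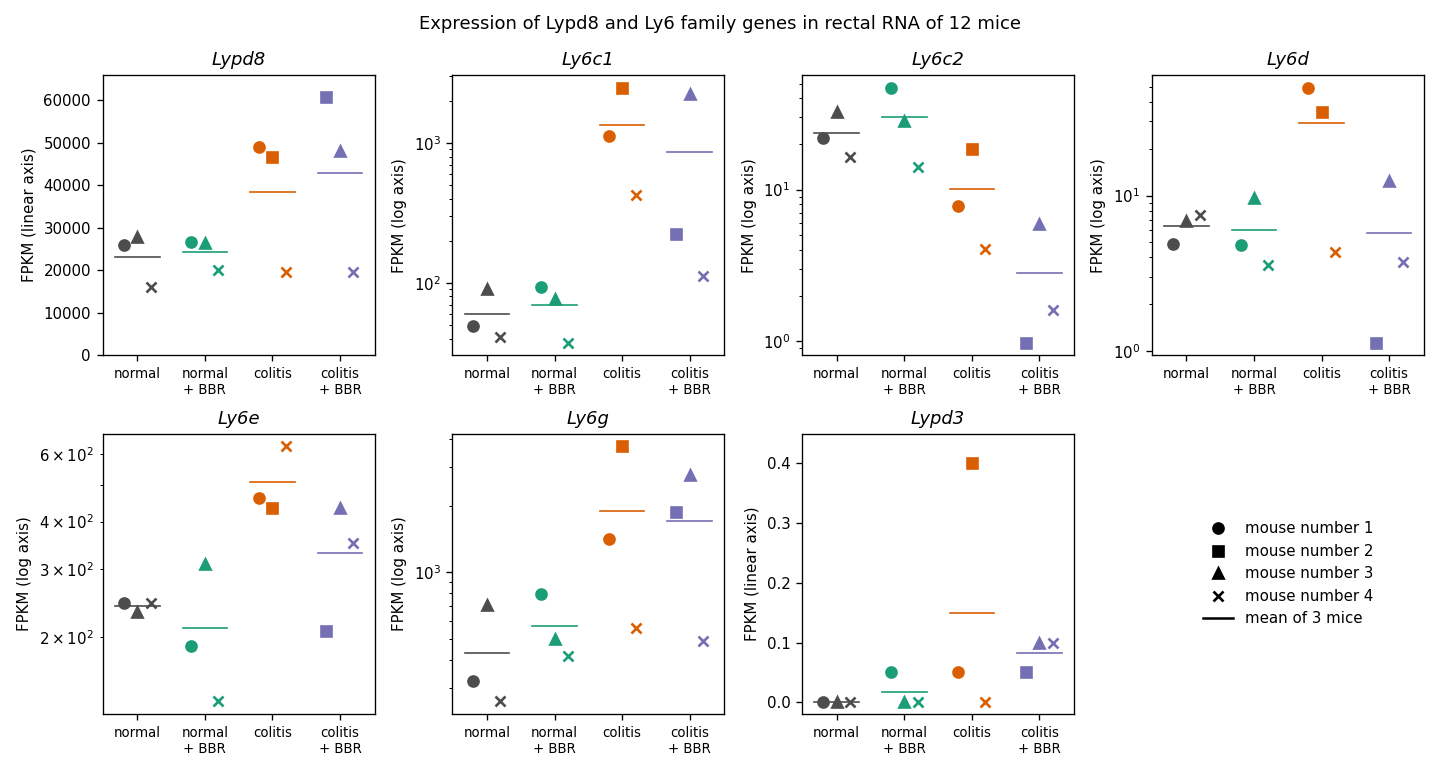
FPKM of the 7 genes in each of the 12 mice, with the 4 groups on the x axis, 1 symbol per mouse number and a bar at the mean of 3 mice; the y axis is linear for Lypd8 and Lypd3 and logarithmic for the others. Ly6c1 in the 3 colitis mice (425.57 to 2487.47 FPKM) lies above all normal mice. The crosses of the mice numbered 4, whose column totals are the lowest, are the lowest points of Lypd8, Ly6c1 and Ly6g in all 4 groups. As a share of the column total this does not hold for Lypd8 after BBR alone, for Ly6g without DSS or for Ly6c1 in normal mice.

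Ly6c1 had the widest fold range of the 6 members detected in every mouse, 66.4 times from the lowest to the highest mouse, against 3.77 for Lypd8, whose range in FPKM was the widest. It stood at 49.48, 89.83 and 41.15 FPKM in normal mice and at 93.03, 76.98 and 37.44 FPKM in normal mice receiving BBR. It reached 1114.24, 2487.47 and 425.57 FPKM in the colitis group, and 223.92, 2235.3 and 111.24 FPKM where colitis mice received BBR. Each of the 6 mice with DSS was above each of the 6 without it, and 1 mouse receiving BBR (number 3) was as high as the colitis mice while the other two lay between them and the normal mice. The geometric mean was 18.6 times higher in colitis than in normal mice, a log2 difference of 4.22 (SE 0.94). The unadjusted P was 0.000823 and the adjusted p 0.0577 in limma, just short of the limit of 0.05. The difference was 4.64 within mice 1 to 3 and 3.37 within mice 4. With a block for the mice numbered 4 the adjusted p was 0.014 and with the replicate block 0.0192, in fits where 9.22% and 4.79% of all genes passed the adjusted limit, against 1.08% in the fit without a block. Leaving out the colitis mouse numbered 4 gave 0.0465 (1.38% of all genes), and over all alternatives the adjusted p ran from 0.0135 to 0.2.

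BBR-treated colitis mice had a mean Ly6c1 of 857.0 ± 1195.1 FPKM against 1342.4 ± 1049.7 in colitis mice (SD, n = 3). The log2 difference was −1.47 (SE 0.94, adjusted p = 0.963), with overlapping groups, so no difference was shown. With 1 mouse left out the difference ran from −0.58, without the colitis BBR mouse numbered 4, to −2.74, without the colitis BBR mouse numbered 3 (adjusted p = 0.827 and 0.116). Against normal mice receiving BBR, colitis mice receiving BBR were 2.56 higher on the log2 scale (SE 0.94, adjusted p = 0.22), without overlap, as were 2.26% of all genes in the higher direction. Against normal mice the difference was 2.75 (adjusted p = 0.22), also without overlap, against 1.95% of all genes. Leaving out the colitis BBR mouse numbered 4 raised the first difference to 3.45 (adjusted p = 0.0365) and the second to 3.64 (adjusted p = 0.028), in fits where 14.7% and 18.9% of all genes passed, against 0.0392% and 0.0196% with that mouse. Leaving out the colitis BBR mouse numbered 3 lowered them to 1.29 (adjusted p = 0.538) and 1.47 (adjusted p = 0.519), the highest adjusted p over all alternatives.

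Ly6c2 was lower, not higher, in most mice given DSS. It was 21.96, 32.69 and 16.35 FPKM in normal mice and 47.09, 28.45 and 14.14 FPKM in normal mice receiving BBR. The colitis group had 7.77, 18.56 and 4.04 FPKM, and the group with both treatments 0.98, 5.9 and 1.61 FPKM. The group means descended from 29.9 ± 16.5 in normal mice receiving BBR through 23.7 ± 8.3 in normal and 10.1 ± 7.54 in colitis mice to 2.83 ± 2.68 in colitis mice receiving BBR (SD, n = 3). Neighbours in this order overlapped in each case, but no mouse of the last group reached any mouse without DSS, where 20.8% (against normal mice) and 18.0% (against normal mice receiving BBR) of all genes were likewise lower without overlap.

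The lowest group was 10.2 times below normal mice in geometric mean, a log2 difference of −3.36 (SE 0.68, adjusted p = 0.136). Against normal mice receiving BBR it was −3.59 (SE 0.68, adjusted p = 0.12). Within mice 1 to 3 these differences were −3.40 and −3.85, and within mice 4 they were −3.27 and −3.06. Without the mice numbered 4 both passed the adjusted limit, at 0.0405 and 0.0349, as did 2157 and 2302 of all 15315 genes, against 3 and 6 with them. Over all alternatives the adjusted p ran from 0.0267 to 0.447 and from 0.0272 to 0.44. Colitis mice without BBR against normal mice gave −1.43 (SE 0.68, adjusted p = 0.245). BBR-treated against untreated colitis mice gave −1.93 (SE 0.68, adjusted p = 0.615).

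The ratio of Ly6c1 to Ly6c2 separated the mice by DSS. It lay between 1.98 and 2.75 in the 6 mice without DSS and between 69.1 and 379 in the 6 mice with it. Ly6c2 made up 26.7% to 33.6% of the summed FPKM of the pair in the former and 0.263% to 1.43% in the latter. The mice numbered 4 were no exception: the share of Ly6c2 was 28.4% and 27.4% without DSS and 0.94% and 1.43% with it. The ratio was looked at after the values of both genes were known and has no test.

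**Figure D2:**
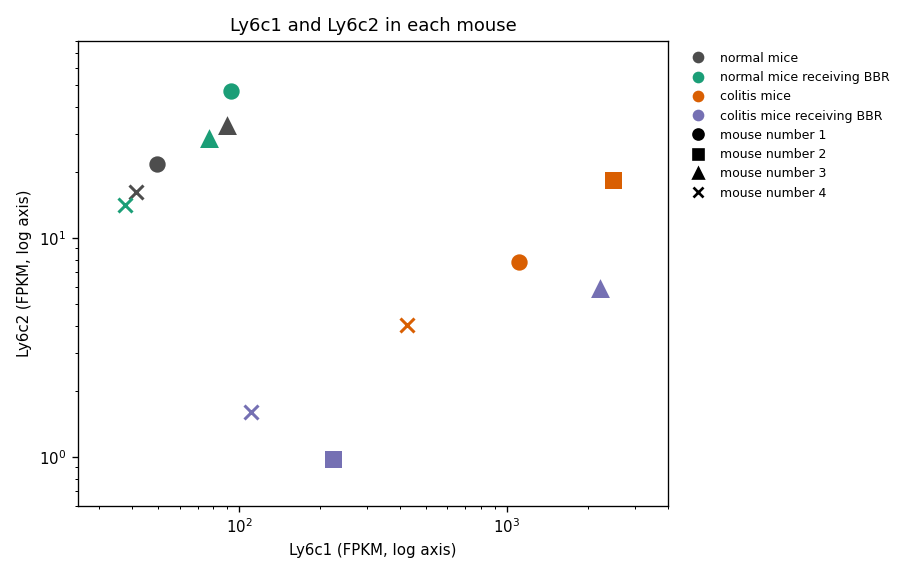
Ly6c1 on the x axis against Ly6c2 on the y axis, both in FPKM on logarithmic axes, 1 point per mouse with the group as colour and the mouse number as symbol. The 6 mice without DSS lie together at ratios of 1.98 to 2.75, and the 6 mice with DSS lie further right at ratios of 69.1 to 379, 5 of them below all mice without DSS and 1 colitis mouse (Ly6c2 at 18.56 FPKM) above the lowest of these (14.14).

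The levels of markers of cells known to carry Ly6C are set beside the pair here. The sum of 7 B and plasma cell markers, none at 0 in all mice of a group, was 204 to 249 FPKM in normal mice, 159 to 280 after BBR alone, 36.2 to 104 in colitis mice and 6.48 to 38.9 with both. Most of it was Jchain, which joins secreted antibodies, at 173.02 to 235.09 FPKM in normal mice and 4.48 to 29.02 in colitis mice receiving BBR. The sum of 10 blood endothelial markers was 32.5 to 36.2 FPKM in normal mice, 30.5 to 35.4 after BBR alone, 10.7 to 31.8 in colitis mice and 10.8 to 22.3 with both. The 11 monocyte and macrophage markers summed to 130 to 168, 135 to 208, 224 to 727 and 120 to 247 FPKM in the same order. The sums of 6 T cell markers overlapped between all groups, at 4.32 to 5.76, 3.84 to 7.43, 5.04 to 10.2 and 1.82 to 6.08 FPKM. In colitis against normal mice 0 of the B and plasma cell, endothelial and T cell markers passed the adjusted limit in limma (1.08% of all genes). At an unadjusted P of at most 0.05, 3 B and plasma cell and 3 endothelial markers were lower (15.9% of all genes in that direction). At the same limit 1 T cell marker was higher (5.56%). Of the 11 monocyte and macrophage markers 6 were higher at the unadjusted limit (5.56% of all genes in that direction), and 7 were lower in BBR-treated than in untreated colitis mice (5.2%). Among them Chil3, a chitinase-like protein, rose past the adjusted limit of limma in colitis against normal mice (log2 difference 6.43, adjusted p = 0.0157). Chil3 averaged under 0.1 FPKM without DSS and was tested only through the mice with DSS. Its call follows in part from the filter, and nothing is read from the count of 6. In colitis mice receiving BBR against normal mice 7 of 10 endothelial and 3 of 7 B and plasma cell markers were lower at the unadjusted limit. Of all genes 18.3% were so, and 0 markers of these 2 lists were higher at that limit. Tnfrsf17, a receptor of plasma cells, fell by 4.16 on the log2 scale there (adjusted p = 0.0277 in limma), where 0.0196% of all genes passed the adjusted limit. No marker of these lists was at 0 in a whole group, and their part in the Ly6c1 and Ly6c2 values was not tested.

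Ly6g was abundant in mice whose other neutrophil transcripts were at or near 0. It was 320.21, 707.15 and 259.46 FPKM in normal mice and 792.79, 498.93 and 416.93 FPKM in normal mice receiving BBR. In the same 6 mice S100a8, a calcium-binding protein abundant in neutrophils, was listed at 0, and its partner S100a9 at no more than 0.45 FPKM. The 13 neutrophil markers summed to 17.7 to 26.7 FPKM in normal mice and 9.56 to 17.9 in normal mice receiving BBR, with 2 of 13 at 0 throughout each group. Most of that was Cd177, itself a member of the Ly6/uPAR family, and the other 12 markers summed to 0.71 to 4.11 FPKM.

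With colitis Ly6g was 1406.26, 3710.2 and 556.95 FPKM, and with colitis and BBR 1872.55, 2749.34 and 488.24 FPKM. The mice numbered 4 were again the lowest and fell within the range of the mice without DSS. The log2 difference between colitis and normal mice was 1.88 (SE 0.75, adjusted p = 0.187), 2.26 within mice 1 to 3 and 1.10 within mice 4. Its adjusted p ran from 0.0398, with a block for the mice numbered 4 (9.22% of all genes passed), to 0.476. Between BBR-treated and untreated colitis mice the difference was −0.07 (SE 0.75, adjusted p = 1.0). In colitis against normal mice 10 of 13 neutrophil markers were higher at the unadjusted limit (5.56% of all genes), but 6 of the 13 (S100a8, Mmp8, Retnlg, Camp, Ngp and Trem1) averaged under 0.1 FPKM without DSS and were tested only through the mice with DSS, so nothing is read from that count. Past the adjusted limit (1.08%) were 3: S100a8 (adjusted p = 0.0254), Ltf, the iron-binding lactoferrin (0.0151), and Mmp8, a neutrophil collagenase (0.0375). The 12 neutrophil markers without Cd177 summed to 526, 533 and 75.3 FPKM with colitis and to 233, 240 and 3.84 with colitis and BBR, and their part in the Ly6g values was not tested. The colitis BBR mouse numbered 4 had 488.24 FPKM of Ly6g with S100a8 at 0.31.

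Over the 12 mice Ly6g tracked Serpinb1a, an inhibitor of neutrophil proteases (Pearson r = 0.975 on the log2 scale), and Ceacam1, an adhesion molecule of surface colonocytes and some leukocytes (r = 0.966). Ceacam1 was 1788.29, 2551.73 and 1212.23 FPKM in normal mice and 2997.2, 5961.03 and 1823.21 FPKM in colitis mice. The ratio of Ly6g to Ceacam1 was 0.179 to 0.321 in mice without DSS and 0.305 to 0.622 in those with it. The points share library and depth, and genes chosen from 11943 for their high r give a high r by selection.

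**Figure D3:**
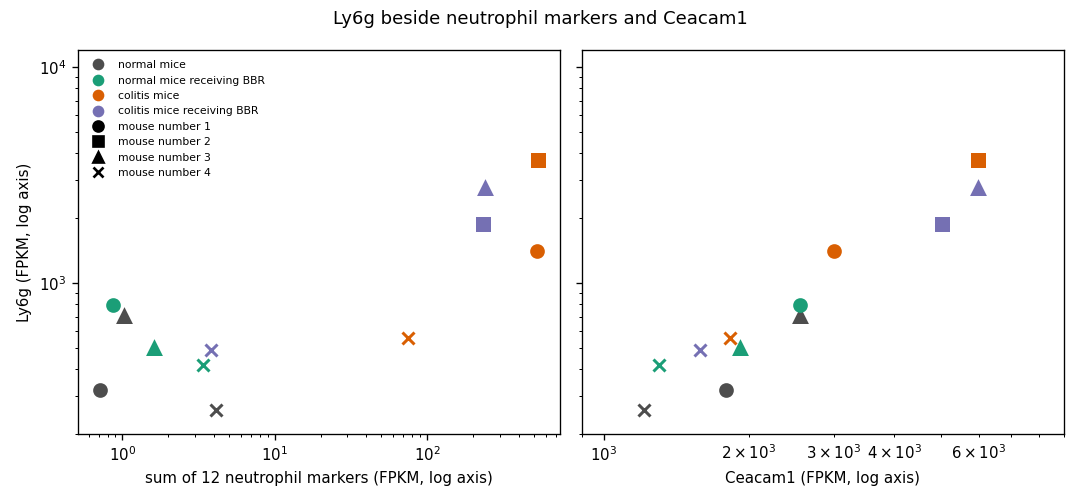
Ly6g in FPKM on the y axis against the summed FPKM of 12 neutrophil markers without Cd177 (left) and against Ceacam1 (right), all axes logarithmic, 1 point per mouse. The 6 mice without DSS have Ly6g at 259.46 to 792.79 FPKM where the neutrophil sum is 0.71 to 4.11. Ceacam1 was plotted because it was chosen for its high r with Ly6g over these 12 mice. The closeness of the points on the right thus comes from selection, and nothing is read from it.

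Ly6e, which lies at chr15:74955025-74959904, varied least among normal mice. It was 245.59, 232.08 and 245.44 FPKM there and 189.32, 309.25 and 135.66 FPKM in normal mice receiving BBR. Colitis mice had 461.18, 434.39 and 628.94 FPKM, and colitis mice receiving BBR 207.73, 434.2 and 351.41 FPKM. All 3 colitis mice stood above all 6 mice without DSS and, by the narrowest margin (434.39 against 434.2), above all 3 colitis mice receiving BBR. The log2 difference between colitis and normal mice was 1.06 (SE 0.34, adjusted p = 0.126), 0.91 within mice 1 to 3 and 1.36 within mice 4. Over the alternatives the adjusted p was 0.0369, with the replicate block (4.79% of all genes passed), to 0.303. The difference between BBR-treated and untreated colitis mice was −0.66 (SE 0.34, adjusted p = 0.849).

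Interferon-response genes are given beside Ly6e because it is induced by interferon. All 25 measured genes of that list were higher in colitis than in normal mice, 20 of them at an unadjusted P of at most 0.05 and 2 past the adjusted limit. Of all tested genes 5.56% were higher at the unadjusted limit, and 1.08% passed the adjusted one in either direction. Their median log2 difference was 1.82, against −0.32 over all tested genes. The 2 past the adjusted limit were Ifit2 (log2 difference 4.31, adjusted p = 0.043), an RNA-binding antiviral protein, and Cxcl9 (3.94, adjusted p = 0.043), a chemokine for T cells. Zbp1, a sensor of viral nucleic acid, had the highest mean of the list over the 12 mice. It was 35.6 ± 5.91 FPKM in normal and 215 ± 55.1 in colitis mice (SD, n = 3), with an adjusted p of 0.0667 in limma. In normal mice Irf1, Oas1a and Irf7 were above it, with means of 106, 68.1 and 55.7 FPKM against 131, 96.5 and 126 in colitis mice. In BBR-treated against untreated colitis mice all 25 had a lower log2 mean, though not all had a lower mean in FPKM. Of them 3 were lower at the unadjusted limit (5.2% of all genes in that direction) and 0 past the adjusted one (0.0%) in limma. The median log2 difference was −0.71 against −0.09 over all genes. The 5 genes most like Ly6e over the 12 mice were Cnp (r = 0.962), Apobec3 (0.952), Tap1 (0.949), Clca3b (0.937) and Rnf19b (0.933). Apobec3 is an antiviral deaminase, and Tap1 carries peptides to MHC class I. These genes were chosen for their high r, which gives a high r by selection. The part of the interferon response in the Ly6e values was not tested.

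Ly6d was high in just 2 colitis mice. It was 4.85, 6.84 and 7.52 FPKM in normal mice, 4.84, 9.7 and 3.56 after BBR alone, 49.61, 34.32 and 4.36 in colitis mice and 1.13, 12.46 and 3.71 with both. The colitis mouse numbered 4 was below all normal mice, so the groups overlapped. The log2 difference was 2.82 within mice 1 to 3 and −0.77 within mice 4, and the value over all mice was 1.62 (SE 0.91, adjusted p = 0.303). BBR-treated against untreated colitis mice gave −2.34 (SE 0.91, adjusted p = 0.66), which was −3.40 within mice 1 to 3 and −0.23 within mice 4.

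Among 11 squamous epithelial markers in the table, Krt4 and Krt6a were at 0 in all normal mice, and Krt4 and Trp63 in all normal mice receiving BBR. The sum of the 11 was 9.99 to 66.6 FPKM in normal mice, 7.73 to 171 after BBR alone, 42.3 to 445 in colitis mice and 21.4 to 358 with both. Most of it was Sprr1a, a cornified envelope protein also made by injured epithelia. The defining keratins Krt5 and Krt4 were at no more than 0.12 and 0.03 FPKM in any mouse, and Trp63 at no more than 0.18. Other keratins of the list were measured at low levels. Krt14 and Krt10 averaged 1.13 and 1.2 FPKM in normal and 1.03 and 0.963 in colitis mice. Krt13 was 0.23 to 1.21 FPKM in normal and 0.66 to 5.18 in colitis mice (log2 difference 1.92, SE 0.80, adjusted p = 0.198), and Krt6a was listed at 0 in normal mice and stood at 0.14 to 0.97 FPKM in colitis mice. The part of the squamous markers in the Ly6d values was not tested.

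Lypd3, at chr7:24636570-24641118, was at or near the limit of detection. It was listed at 0 in the 3 normal mice and was 0.05, 0 and 0 FPKM after BBR alone, 0.05, 0.4 and 0 with colitis and 0.05, 0.1 and 0.1 with both. From the steps between low values, 3 reads on its transcript of 1649 bases are worth 0.0955 to 0.152 FPKM, which covers counting error only. A single mouse, the colitis mouse numbered 2, was above that range. Its mean of 0.0625 FPKM was under the minimum of 0.1, and it was not tested.

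The other 6 members were tested in limma with adjustment over 15315 genes. In colitis against normal mice 0 of 6 passed the adjusted limit, which 1.08% of all genes passed. At an unadjusted P up to 0.05, the limit the study used, 3 of 6 passed (Ly6c1, Ly6e and Ly6g, all higher), against 21.4% of all genes, or 5.56% when only higher genes are counted. Ly6c1 and Ly6e had no overlap between the groups, and 7.1% of all genes did so in the higher direction. No member was lower without overlap, where 22.2% of all genes were. The smallest p that an exact permutation test allows with 3 mice a group is 0.1, the value of both genes.

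In BBR-treated against untreated colitis mice 0 of 6 passed the adjusted limit, as did 0.0% of all genes, and 2 of 6 (Ly6c2 and Ly6d, both lower) passed the unadjusted one, against 6.39% of all genes and 5.2% in the lower direction. Ly6e was the 1 member without overlap, where 5.66% of all genes were lower without overlap. In normal mice receiving BBR against normal mice the 6 log2 differences lay between −0.27 and 0.50, with 0 of 6 at the unadjusted limit that 1.36% of genes passed and 0 at the adjusted one (0.0%) in limma. All adjusted p-values were 1.0, and all 6 members overlapped, while 9.62% of all genes did not. Colitis mice receiving BBR against normal mice had 0 of 6 adjusted calls (0.0196% of all genes) and 3 of 6 unadjusted (20.1%): Ly6c1 and Ly6g higher (1.84% of all genes) and Ly6c2 lower (18.3%). In the comparison with normal mice receiving BBR, Ly6c1 and Ly6c2 did not overlap (20.2% of all genes), and the limits were passed by 0 of 6 adjusted (0.0392%) and 2 of 6 unadjusted (19.7%): Ly6c1 higher (2.37%) and Ly6c2 lower (17.3%). These comparisons share mice with each other. The interaction, which asks whether BBR acted differently in colitis and in normal mice, gave 0 of 6 adjusted calls (0.0%) and 1 unadjusted (2.42%, or 1.72% when only lower genes are counted), Ly6c2 at −2.16 (SE 0.96, adjusted p = 1.0).

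**Figure D4:**
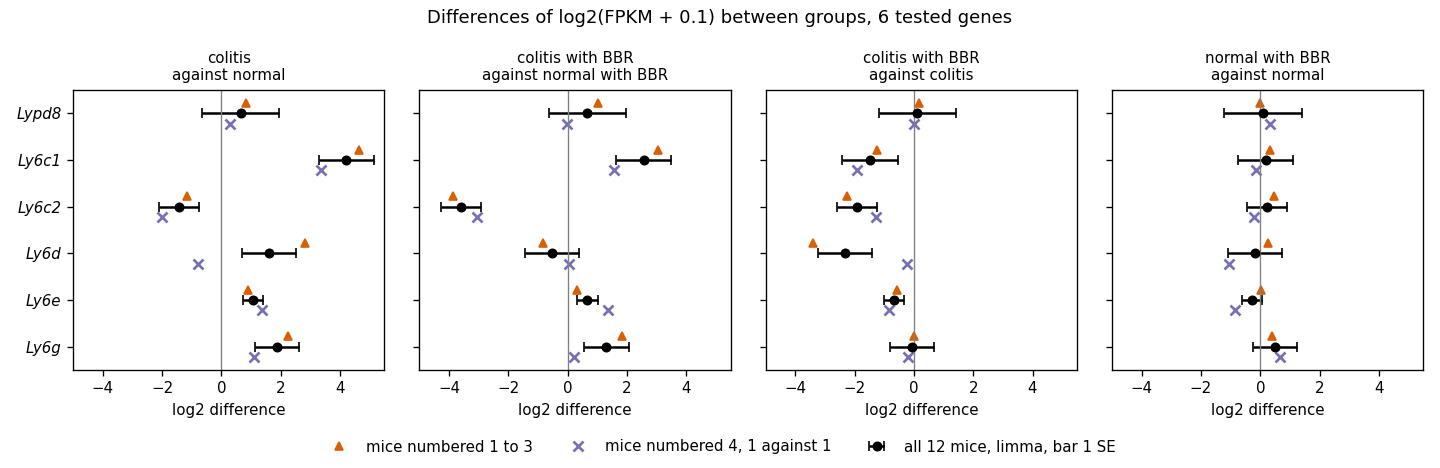
Differences of log2(FPKM + 0.1) for the 6 tested genes in 4 comparisons; black points are limma estimates with a bar of 1 SE, triangles the mice numbered 1 to 3 and crosses those numbered 4, 1 mouse against 1. Ly6c1 lies right of 0 (4.22) and Ly6c2 left of it (−1.43) in colitis against normal, and for Ly6d the triangle (2.82) and the cross (−0.77) lie on opposite sides.

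Of 38 other Ly6/uPAR genes on the list, 29 are in the table and 23 were tested. In colitis against normal mice 13 were higher and 10 lower, with a median log2 difference of 0.13 against −0.32 over all genes. The unadjusted limit was passed by 8 that were higher and 2 that were lower (5.56% and 15.9% of all genes), and the adjusted one by 1 (1.08% of all genes). This was Ly6f, listed at 0 in the 3 normal mice and at 0.53, 0.19 and 0.55 FPKM with colitis (adjusted p = 0.0327), a level of a few reads. Ly6f was listed at 0 in 5 of 6 mice without DSS and reached the minimum mean for testing only through the colitis mice, so the call follows in part from the filter and is given as a description. Gml and Gml2 likewise entered the test only through the mice with DSS, so 3 of the 23 tested genes were bound to be higher in mice with DSS, and nothing is read from the count of 8.

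Ly6a, also known as Sca-1 and a marker of stem cells and of the regenerating bowel epithelium, was the gene most like Ly6c1 (r = 0.987 over 12 mice, 0.989 over mice 1 to 3). It was 453.17, 665.15 and 322.65 FPKM in normal mice, 4540.79, 5312.27 and 1692.66 with colitis and 1771.58, 6231.23 and 665.16 with colitis and BBR. Its log2 difference between colitis and normal mice was 2.90 (SE 0.74, adjusted p = 0.075). Of its 50-base windows 19.0% occur in another gene, most often Ly6c1.

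Gml was listed at 0 in the 3 normal mice and stood at 9.94, 31.27 and 2.03 FPKM with colitis and 5.97, 28.95 and 0.07 with colitis and BBR (colitis against normal, adjusted p = 0.0593). Its neighbour Gml2, which shares 18.6% of its windows with it, was 4.65, 17.02 and 1.63 FPKM in colitis mice and no more than 0.13 without DSS (adjusted p = 0.0959). Plaur, the urokinase receptor that gives the family its name, was 2.84 to 3.99 FPKM in normal mice and 29.94, 114.91 and 10.87 in colitis mice (log2 difference 3.32, adjusted p = 0.0968). Ly6m (2.83, adjusted p = 0.116), Ly6i (1.81, adjusted p = 0.112) and Ly6g2 (1.5, adjusted p = 0.0991) were also higher in all 3 colitis mice than in all 3 normal ones.

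Ly6g6c (−1.89, adjusted p = 0.108), Ly6g6d (−0.79, adjusted p = 0.198) and Ly6g6e (−0.63, adjusted p = 0.285), 3 neighbours on chromosome 17, had lower means in colitis mice. Ly6g6c was 4.54 to 6.14 FPKM in normal mice, 0.69 to 1.78 after BBR alone, 0.62 to 3.84 with colitis and 2.72 to 5.74 with both. Its values after BBR alone did not overlap those of normal mice, as held for 9.62% of all genes. Cd59a, an inhibitor of complement lysis, had a log2 difference of −0.90 (adjusted p = 0.355), and Gpihbp1, which carries lipoprotein lipase on endothelium, one of −1.04 (adjusted p = 0.437). Spaca4 (−0.30, SE 0.26), Lynx1 (−0.12, SE 0.40), Cd177 (0.11, SE 0.72) and Lypd6b (0.34, SE 0.44) had differences close to or below their SE.

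The table holds 21 family genes between chr15:74714839-75598213, in the cluster that includes Ly6d, Ly6e, Ly6c1, Ly6c2 and Ly6g. A mean of at least 1 FPKM over the 12 mice was reached by 13. Among them Gml, Gml2 and, by a narrow margin, Ly6i reached it only through the mice with DSS, so no tally of directions is drawn from the 13. Ly6c2 lies between Ly6c1 and Ly6g, both with higher means in colitis than in normal mice. Colitis mice receiving BBR against normal mice receiving BBR, a comparison with no mouse in common with the first, gave 2.56 for Ly6c1, −3.59 for Ly6c2, 1.31 for Ly6g, 0.67 for Ly6e and −0.53 for Ly6d. Of these members Ly6d differed in sign from its value of 1.62 in colitis against normal mice. The most abundant other genes of the cluster, Ly6a and Ly6m, had 2.04 and 2.83.

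**Figure D5:**
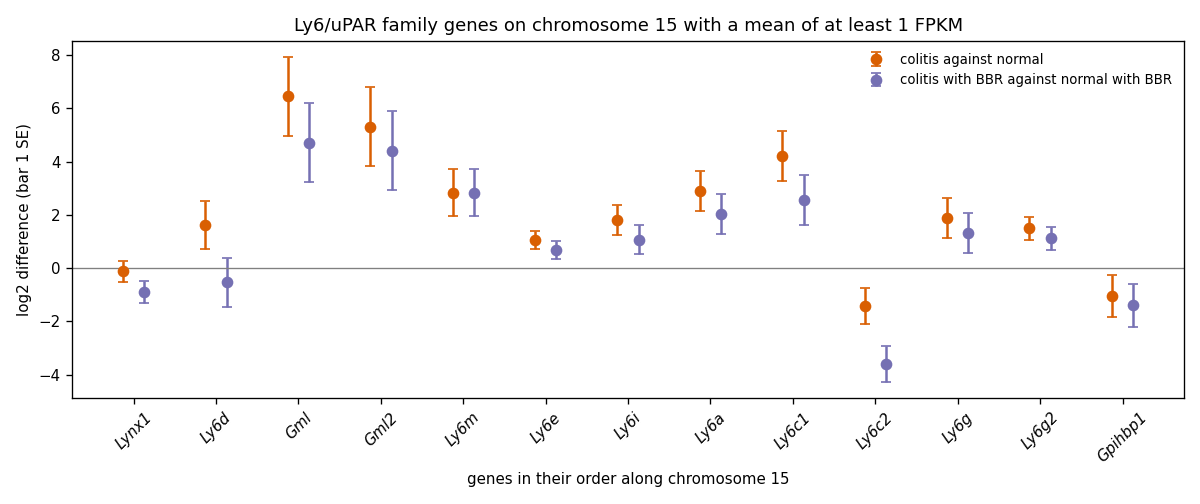
Log2 differences with a bar of 1 SE for the 13 Ly6/uPAR genes of chromosome 15 with a mean of at least 1 FPKM, in their order along the chromosome, for colitis against normal (orange) and colitis with BBR against normal with BBR (purple). Ly6c2 (−1.43 and −3.59) lies below 0 between Ly6c1 (4.22 and 2.56) and Ly6g (1.88 and 1.31).

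Most proteins of the family need a GPI anchor, and 27 genes of anchor synthesis and attachment were measured. In colitis against normal mice 6 had a higher and 21 a lower log2 mean, with a median difference of −0.23 against −0.32 over all genes, with 2 higher and 4 lower at the unadjusted limit (5.56% and 15.9% of all genes) but 0 past the adjusted one in limma. Dpm3, of the enzyme that supplies the mannose donor, was the most abundant of them, at 77.6 FPKM in normal and 69.0 in colitis mice on average (log2 difference −0.15, adjusted p = 0.845). Pigt, of the transamidase that attaches the anchor, was at 48.5 and 45.4 FPKM (−0.26, adjusted p = 0.758). Dpm2, a partner of Dpm3, was at 38.2 and 39.4 FPKM (0.05, adjusted p = 0.925), and Pigp, of the enzyme of the first step, at 39.2 and 24.3 FPKM (−0.66, adjusted p = 0.219).

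Lypd8 acts at the mucus layer, and 20 genes of mucus and luminal defence were measured beside it. In colitis against normal mice 11 had a higher and 9 a lower log2 mean, with a median difference of 0.08 against −0.32 over all genes, and 3 rose past the adjusted limit, which 1.08% of all genes passed. These were Slpi (log2 difference 5.44, adjusted p = 0.014), a protease inhibitor, and the antibacterial lectins Reg3b (9.29, adjusted p = 0.0433) and Reg3g (7.83, adjusted p = 0.0362). The 4 most abundant genes of the list had differences near or below their SE: Zg16 (−0.12, SE 1.14), the trefoil peptide Tff3 (−0.02, SE 1.15), the mucus protein Clca1 (−0.83, SE 0.82) and the lectin Lgals4 (0.04, SE 0.49). The signs are those of log2 means. In mean FPKM Zg16 (17378.4 against 12748.8) and Tff3 (10335.8 against 7970.5) were higher in colitis than in normal mice. Reg3g was listed at 0 in the 3 normal mice, so its fitted difference depends on the pseudocount. S100a8, Mmp8, Chil3, Reg3b and Reg3g averaged under 0.1 FPKM in both groups without DSS and entered the fit only through the mice with DSS, so their calls follow in part from the filter.

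The 5 genes most like each member over 12 mice, by Pearson r on the log2 scale among 11943 genes with a mean of at least 1 FPKM, are given as a description. For Lypd8 they were Tmem45b (r = 0.973), AA467197 (0.964), Gapdh (0.962), Cideb (0.962) and Srxn1 (0.961). For Ly6c1 they were Ly6a, Trim15, Wfdc18, Tmem150b and Pglyrp1, a bactericidal peptidoglycan binder (r = 0.973). For Ly6c2 they were Mzb1 (r = 0.953) and Jchain (0.935), both genes of antibody-secreting cells, then Rgs10, Ubr1 and Hace1. For Ly6d they were Cpe (r = 0.933, but Spearman rho 0.671), Nrbp1, Zdhhc21, Zfp53 and Pcsk5, for Ly6e Cnp (r = 0.962), Apobec3, Tap1, Clca3b and Rnf19b, and for Ly6g Serpinb1a, Ceacam1, Gcc2, Gpr137b and Mcfd2. Among the members themselves r was 0.89 for Lypd8 and Ly6g, 0.88 for Ly6c1 and Ly6g and −0.28 for Ly6c1 and Ly6c2. All points share the libraries and the offset of the mice numbered 4.

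Of the members, Lypd8, Lypd3, Ly6c1, Ly6c2 and Ly6g were found in the RefSeq promoter table of GRCm38.p6. In the 250 bases before their annotated starts, neither strand held TTCNNNGAA, the letters of a STAT site, or the core of the interferon-stimulated response element (a repeated GAAA with a spacer of any 2 bases). These letters occur in 7.02% and 2.98% of 32851 promoter windows of that length. TATAAA was found before both starts of Ly6g and before 1 of 2 starts of Ly6c1, against 12.4% of all windows. A missing match says only that these letters are not in the window.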

How the data were processed

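Rectal RNA of 12 mice was sequenced by the authors and used here in full, 3 mice in each of 4 groups taken from the labels. By the study's methods and the submitters' processing notes, reads were filtered with SOAPnuke 1.5.2, aligned with Bowtie2 2.2.5 and quantified with RSEM 1.2.12 on mm9. The labels and the methods name different library kits and sequencers. The table deposited by the authors gives each gene 1 number per mouse, taken from its values to be in FPKM. TPM with part of the genes left out would give such values too; either unit is per length. No read counts are in the table, so depth was judged from the steps of low values. All coordinates and sequences are from GRCm38 and serve as reference positions only, since the files were made on another build.

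Values were taken as log2(FPKM + 0.1), and the 15315 genes whose mean reached 0.1 entered 1 limma 3.58.1 fit in R 4.3.3 with a mean for each group and a trend of spread on level. Fold changes on this scale understate those of low genes. Benjamini-Hochberg adjustment ran over all 15315 genes, with a limit of 0.05, and exact permutation tests, two-sided, went through all splits of 3 mice against 3. The fit was tested on simulated data. Tables were made with pandas 2.3.3 and NumPy 2.4.6 in Python 3.11.15 and plots with matplotlib 3.10.9.

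The members and lists were chosen with earlier results of these data known. Named were the 7 members, every other family gene with a mean of at least 1 FPKM, list genes past the adjusted limit and up to 4 genes of highest mean from each list, as well as the 5 genes most like each member. Outside this rule, Krt4, Krt5, Krt6a and Trp63 were named as defining squamous markers, Camp, Ngp, Retnlg and Trem1 as markers near 0 without DSS, and Saa1 and Sprr2a3 for their rank beside Lypd8, after their values were seen. Alternatives were other pseudocounts (1 and 0.01), quantile normalization or median centring, no filter or one at 1 FPKM, the compared groups alone, no trend, blocks for the mouse number and for the mice numbered 4, and leaving out mice. Only normal mice receiving BBR and normal mice carried the same set of numbers, and the labels do not say that numbers pair mice. The deviations of their same-numbered mice correlated at 0.29, 0.109 and 0.657 for numbers 1, 3 and 4. Differently numbered mice 1 and 3 of these groups correlated at 0.366 and 0.456. In that comparison the replicate block changed no call.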

Additional observations from a re-analysis of the deposited data

How the results depend on the processing

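The 6 tested members gave 642 values under the alternatives. Of these, 592 kept direction and side of the adjusted limit, and 18 passed it where the reported value did not. The other 32 changed direction, counting Lypd8 differences that quantile normalization set to 0.0. For colitis against normal mice the count of members past the adjusted limit, reported as 0, was 1 with quantile normalization (1.68% of all genes), 1 with the compared groups alone (3.19%), 2 with the replicate block (Ly6c1 and Ly6e, 4.79%), 2 with a block for the mice numbered 4 (Ly6c1 and Ly6g, 9.22%), 1 without the mice numbered 4 (5.25%), 3 at the unadjusted limit (21.4%), and 0 to 1 with 1 mouse left out (0.0718% to 1.38%), against 1.08% of all genes as reported. For colitis mice receiving BBR it was 2 at the unadjusted limit against colitis mice (6.39%). Against normal mice it was 1 with the block for the mice numbered 4 (0.261%), 2 without them (14.1%), 3 unadjusted (20.1%) and 0 to 3 with 1 mouse left out (0.0% to 18.9%), and against normal mice receiving BBR 1 (1.75%), 1 (2302 of 15315 genes), 2 (19.7%) and 0 to 2 (0.0% to 14.7%). The share of all genes rose along with the members' counts in these fits. The interaction gave 1 at the unadjusted limit (2.42%). The highest counts with 1 mouse left out came without the mouse numbered 4 of the DSS group compared. The cause was not tested.

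No pairing by mouse number was shown over all groups, apart from the offset of the mice numbered 4. Same-numbered mice of different groups correlated at 0.34 on average over 13 pairs, and those numbered 4 at 0.497. For numbers 1 to 3 the mean was 0.205, near the 0.193 of differently numbered mice among them. Beyond colitis against normal mice, the replicate block changed no count. The interaction needs all 4 groups, so the compared groups alone give it no further value.

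Quantile normalization set every Lypd8 difference to 0.0, by construction, since the top gene of each mouse then takes the same value. The median log2 difference of all tested genes between colitis and normal mice was −0.32 as deposited, −0.05 after quantile normalization and 0.02 after median centring. Centring on the median turned Ly6g in BBR-treated against untreated colitis mice from −0.07 to 0.08. Without the mice numbered 4, normal mice receiving BBR against normal mice gave −0.02 for Lypd8, 0.25 for Ly6d and 0.02 for Ly6e. With 1 mouse left out, log2 differences that changed sign ran as follows. In BBR-treated against untreated colitis mice Lypd8 ran from −0.31 to 0.60 and Ly6g from −0.75 to 0.67. In normal mice receiving BBR against normal mice Lypd8 ran from −0.15 to 0.24, Ly6c1 from −0.08 to 0.58, Ly6c2 from −0.18 to 0.69, Ly6d from −0.59 to 0.12 and Ly6e from −0.59 to 0.01. Ly6d ran from −1.56 to 0.11 in colitis mice receiving BBR against normal mice and from −1.38 to 0.30 against normal mice receiving BBR. In the interaction Lypd8 ran from −0.41 to 0.51 and Ly6g from −1.24 to 0.17. None of these passed the adjusted limit.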
